A study of Mus musculus with 203 samples.

Results

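The 4 genes Tbx2, Tbx3, Tbx4 and Tbx5 form a subfamily of the T-box transcription factors. They were taken by symbol as 4 of the 24029 rows of a count table of single mouse nucleus ambiguus (Amb) neurons, and they were chosen with their pattern across these neurons already known, so their levels are given as a description. The neurons came from wild type mice labelled C57BL/6 and given in the study's methods as C57BL/6NCrl. Cholera toxin B carrying a fluorophore, a tracer that travels back along axons to the cell body, had been injected at postnatal day 1 around the heart or into the cricothyroid muscle of the larynx, and labeled neurons were aspirated from brainstem slices at postnatal days 2 to 4 and sequenced one by one with Smart-seq2. The deposited annotation divides them into 53 ACP and 98 ACV neurons, which make up the Amb Cardiac neurons, and leaves 52 as Amb Laryngeal neurons. ACP stands for ambiguus cardiopulmonary and ACV for ambiguus cardiovascular.

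The injected organ separates cardiac from laryngeal neurons, but ACP and ACV were defined by the authors' clustering of these same counts. By the study's methods, separate mice were injected around the heart and in the larynx, so cardiac and laryngeal neurons shared no mouse. Between them, differences among mice cannot be told apart from those of the injected organ. The labels do not say which neurons shared a mouse or a plate. Each type was therefore treated as 1 sample, no test between types was made, and spreads and intervals describe the neurons sampled only. No 2 neurons had identical counts.

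T-box factors bind DNA through a conserved domain, the T-box. Tbx2 and Tbx3 act mainly as repressors and are best known from the developing heart, where they hold back chamber genes in the conduction system, and from the limb, retina and mammary gland, where BMP signaling often lies upstream. Tbx5 acts mainly as an activator in the heart and forelimb, and Tbx4 in the hindlimb and lung. The nucleus ambiguus is a column of cholinergic motor neurons in the medulla that supplies the larynx, pharynx and esophagus and holds parasympathetic neurons of the heart and lungs.

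The genes lie in pairs. On the GRCm38 (mm10) assembly with GENCODE annotation, Tbx2 (ENSMUSG00000000093.6, chr11:85832551-85841948) and Tbx4 (ENSMUSG00000000094.12, chr11:85886422-85916097) are both on the plus strand, 44474 bases apart. Tbx3 (ENSMUSG00000018604.18, chr5:119670669-119684724) and Tbx5 (ENSMUSG00000018263.11, chr5:119832668-119885219) are on the plus strand too, 147944 bases apart. Their merged exons cover 3626 bases in Tbx2, 6624 in Tbx3, 3401 in Tbx4 and 4675 in Tbx5.

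Because related genes can share reads, the members were compared in windows of 75 bases, the read length. Of the 3552 such stretches in Tbx2 transcripts, 0 occurred in another gene. The same held for Tbx4 and Tbx5, and in Tbx3 the only shared stretches were 42 of 6685 (0.628%), in common with the antisense gene Tbx3os1. Over all windows of 1 chosen transcript of each gene, those of Tbx2 and Tbx3 differed at 10 bases or more, and those of Tbx4 and Tbx5 at 8 or more. The closest windows within 1 coding exon are printed below with differing bases in capitals. They show how reads of each pair differ within the coding exons where they are most alike, by 11 bases for Tbx2 and Tbx3 in the first exon of each (chr11:85833413-85833487 and chr5:119672316-119672390, plus strand) and by 12 bases for Tbx4 and Tbx5 (exon 4, chr11:85899817-85899891, and exon 5, chr5:119841820-119841894, plus strand).
Tbx2, beside Tbx3: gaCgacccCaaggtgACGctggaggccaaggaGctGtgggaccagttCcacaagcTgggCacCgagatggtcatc
Tbx3, beside Tbx2: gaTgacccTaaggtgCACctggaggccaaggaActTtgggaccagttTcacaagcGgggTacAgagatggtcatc
Tbx4, beside Tbx5: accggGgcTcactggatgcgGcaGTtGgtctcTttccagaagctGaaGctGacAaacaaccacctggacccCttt
Tbx5, beside Tbx4: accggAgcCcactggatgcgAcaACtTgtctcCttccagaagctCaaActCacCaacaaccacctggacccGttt
The longest identical run between the chosen transcripts of a pair was 14 bases for Tbx2 and Tbx3 and 23 for Tbx4 and Tbx5.

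Total counts ran from 542162 to 3292763 per neuron. The ribosomal RNA gene Rn45s took a median of 34.3% of counts in ACP, 35.9% in ACV and 58.6% in laryngeal neurons, so levels are given as counts per 10000 of each neuron's total without Rn45s. That total had a median of 1115375 in ACP, 1120511 in ACV and 560892 in laryngeal neurons. The 5 markers of cholinergic hindbrain motor neurons were detected in every type, among them Slc18a3, the vesicular acetylcholine transporter, in 100% of neurons of each type. All 4 ACP markers (Calb1, Trhr, Tacr3 and Mc4r) had means at least 2-fold higher in ACP than in ACV. All 4 ACV markers (Bche, Ghsr, Htr3b and Lepr) were that much higher in ACV than in ACP. All 4 laryngeal markers (Calca, Calcb, Dlk1 and Lhx4) were that much higher in laryngeal neurons than in either. Against laryngeal neurons, 3 of the 4 ACP markers were at least 2-fold higher in ACP, while Tacr3 was 1.375-fold higher. The study reported these markers from these same neurons, and ACP and ACV rest on these same counts. The values are therefore not an independent check of the labels. Astrocyte genes such as Apoe were also present, with a summed level of the 14 glial and microglial markers between 0 and 319.6 and medians of 15.6, 12.9 and 13.5 in ACP, ACV and laryngeal neurons.

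Tbx2 was most often detected in ACP neurons. It had at least 1 read in 42 of 53 ACP neurons (79.2%, 95% exact binomial interval 65.9 to 89.2%), in 19 of 52 laryngeal neurons (36.5%, 23.6 to 51%) and in 20 of 98 ACV neurons (20.4%, 12.9 to 29.7%). In ACP its level ran from 0 to 4.34 with a median of 0.437, in laryngeal neurons from 0 to 2.90 with a median of 0, and in ACV from 0 to 6.39 with a median of 0. The median ACP neuron thus lay above the upper quartile of laryngeal neurons, which was 0.257, although the ranges of all types overlapped.

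The mean level of Tbx2 was 0.783 ± 0.988 (SD over neurons, n = 53) in ACP, 0.247 ± 0.557 (n = 52) in laryngeal and 0.123 ± 0.666 (n = 98) in ACV neurons. Over both cardiac types together it was 0.355 ± 0.852, only 1.44 times the laryngeal mean. The mean in ACP was 6.36 times that in ACV and 3.17 times that in laryngeal neurons. As background, 9.87% of the 13357 genes detected in at least 10% of either type had a mean at least 2-fold higher in ACP than in ACV, and 10.3% of 13257 genes were at least 2-fold higher in ACP than in laryngeal neurons. A detection share at least 25 percentage points higher in ACP, as Tbx2 had against both other types, was seen for 1.47% of genes against ACV and 2.5% against laryngeal neurons.

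The ACV mean of Tbx2 leaned on a single neuron. That neuron held 509 of the 1088 reads summed over the type (46.8%) and the highest level of any neuron, and without it the ACV mean was 0.0586. With all neurons the laryngeal mean was at least 2-fold higher than the ACV mean (log2 ratio of ACV to laryngeal -1.0), as it was for 14% of 13298 genes, a difference smaller than the SD of either type, and the detection intervals of the 2 types overlapped. Without the highest neuron of each type the log2 ratio was -1.73. By mean level the order was ACP, then laryngeal, then ACV, and no 2 neighbors in it differed by more than the larger of their SDs over neurons. These SDs describe the spread among neurons, many with 0 reads, and not the precision of a mean.

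Tbx3 was detected in both cardiac types and seldom in laryngeal neurons. It had reads in 42 of 53 ACP neurons (79.2%, 65.9 to 89.2%), 78 of 98 ACV neurons (79.6%, 70.3 to 87.1%) and 11 of 52 laryngeal neurons (21.2%, 11.1 to 34.7%). Its level ran from 0 to 3.35 in ACP with a median of 0.541, from 0 to 4.11 in ACV with a median of 0.368, and from 0 to 1.90 in laryngeal neurons with a median of 0. The cardiac types overlapped almost fully, while most laryngeal neurons had no read.

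The mean level of Tbx3 was 0.815 ± 0.857 (n = 53) in ACP, 0.636 ± 0.773 (n = 98) in ACV and 0.0901 ± 0.334 (n = 52) in laryngeal neurons. Over all Amb Cardiac neurons it was 0.699 ± 0.805 (SD over both cardiac types), 7.75 times the laryngeal mean, where 9.46% of 13203 genes were at least 2-fold higher in cardiac neurons. The share of neurons with Tbx3 was 58.3 percentage points higher in cardiac than in laryngeal neurons, and 1.43% of genes reached 25 points. Against laryngeal neurons alone the ACP mean was 9.04-fold and the ACV mean 7.06-fold higher, where 10.4% of genes were at least 2-fold higher in ACV and 1.95% had a detection share at least 25 points higher. As for Tbx2, each of these differences in mean was smaller than the SD over neurons of the cardiac group compared. The laryngeal reads were few and uneven, since 1 neuron held 45% of all 280.

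ACP and ACV differed in Tbx3 by 1.28-fold, well inside the SD of either type. Among neurons with at most 900 Apoe counts (26 ACP and 44 ACV), the log2 ratio of ACP to ACV went from 0.36 to -0.36. No order of the cardiac types can therefore be read from Tbx3.

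Depth moved with Tbx3 and hardly with Tbx2. Over all neurons the Spearman correlation with counts outside Rn45s was 0.52 for Tbx3 and 0.06 for Tbx2. Within types it was 0.27 in ACP, 0.43 in ACV and 0.10 in laryngeal neurons for Tbx3. With each neuron thinned to 250000 counts outside Rn45s, which left out 3 laryngeal neurons, Tbx3 was detected in 75.5% of ACP, 78.6% of ACV and 20.4% of laryngeal neurons, and Tbx2 in 77.4%, 19.4% and 36.7%. Thinning matched the counts outside Rn45s but not the genes detected or the share of Rn45s, and the part of these in the differences was not tested. Correlations with the summed glial and microglial markers lay between -0.19 and 0.03 in every type for both genes.

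**Figure D1:**
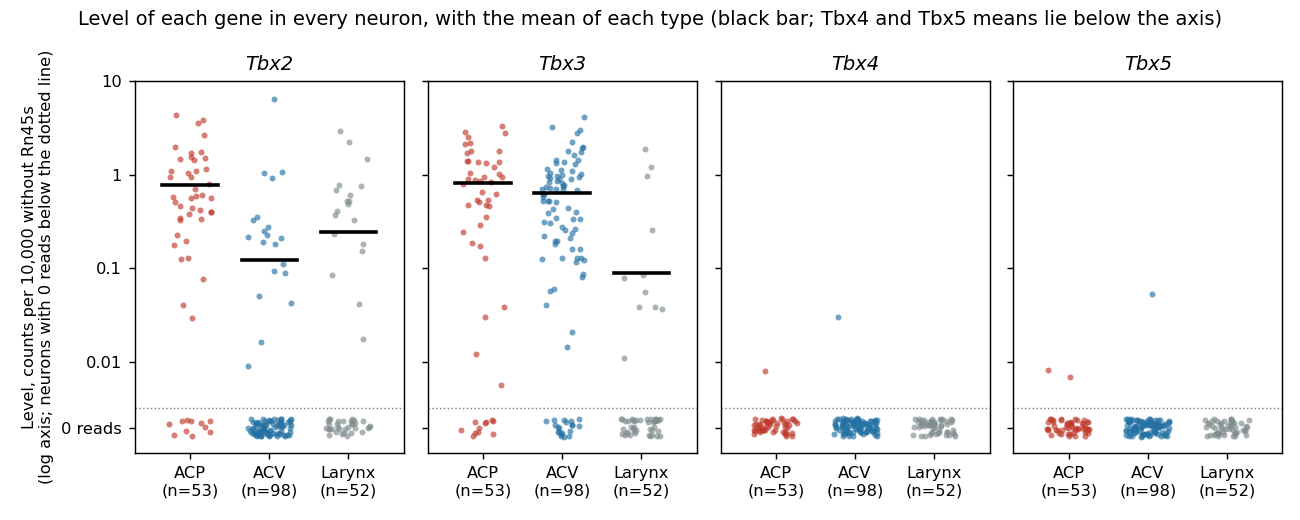
Level of Tbx2, Tbx3, Tbx4 and Tbx5 in each neuron, in counts per 10000 of the total without Rn45s, on a log axis. Each point is 1 neuron, black bars are means of a type, and neurons with 0 reads are spread below the dotted line. Tbx2 was detected mainly in ACP (42 of 53), Tbx3 in ACP and ACV (42 of 53 and 78 of 98), and Tbx4 and Tbx5 in at most 2 neurons of a type.

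Tbx4 and Tbx5 were at the edge of detection. Tbx4 had 1 read in 1 ACP neuron and 4 reads in 1 ACV neuron, and Tbx5 had 1 read in each of 2 ACP neurons and 3 reads in 1 ACV neuron. In laryngeal neurons both were listed at 0 of 52. With the limit of 3 neurons set for a count of 0, this allows a share of neurons with a read of up to 5.77%. The exact binomial interval reaches 6.85%. Only Tbx2 and Tbx3 of the 4 members passed the minimum of detection in 10% of neurons of either type, so no ratio was formed for the others. The neuron with 1 read of Tbx4 in ACP had 246 reads of Tbx2, its neighbor on chromosome 11, and both ACP neurons with Tbx5 had reads of Tbx3 (205 in 1 of them), its neighbor on chromosome 5. The ACV neuron with Tbx4 had 0 reads of Tbx2, and the one with Tbx5 had 0 of Tbx3.

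The pair Tbx2 and Tbx3 divided the types by combination. Both were detected in 34 of 53 ACP neurons (64.2%, 49.8 to 76.9%), in 19 of 98 ACV neurons (19.4%, 12.1 to 28.6%) and in 5 of 52 laryngeal neurons (9.62%, 3.20 to 21%). Tbx3 without Tbx2 was the most common state in ACV, with 59 neurons (60.2%), whereas Tbx2 without Tbx3 was found in 1 ACV neuron only. Laryngeal neurons most often had neither (27 neurons, 51.9%), and 14 had Tbx2 alone.

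Read the other way, 34 of the 58 neurons with both genes were ACP (58.6%) and 59 of the 73 with Tbx3 alone were ACV (80.8%). Of the 23 with Tbx2 alone, 14 were laryngeal (60.9%) and 8 ACP (34.8%). The combination overlapped between types in every class, so no class belonged to a single type.

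**Figure D2:**
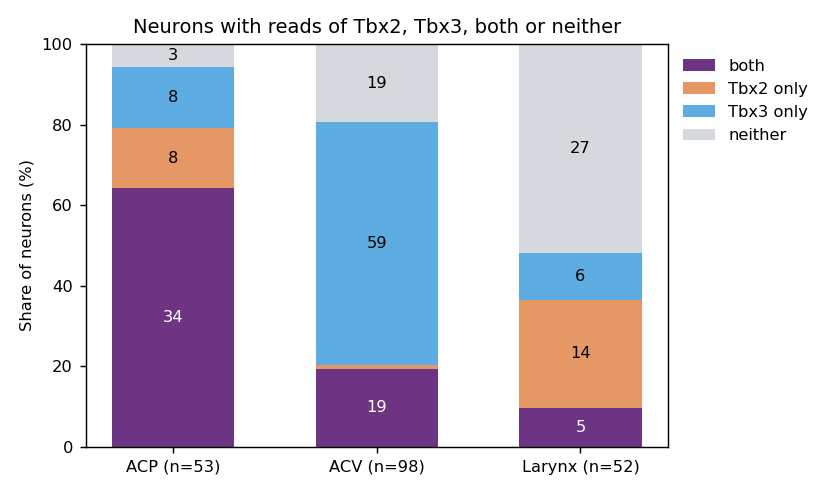
Share of neurons (%) with at least 1 read of both Tbx2 and Tbx3, of 1 of them or of neither, in ACP (n = 53), ACV (n = 98) and laryngeal neurons (n = 52). Numbers in the bars count neurons, and the unlabeled band in ACV is the 1 neuron with Tbx2 only. The largest class was both in ACP (34), Tbx3 only in ACV (59) and neither in laryngeal neurons (27).

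Within a type the genes were found together about as often as their separate shares would give. The product of the shares gave 33.3 ACP neurons with both against 34 observed, 15.9 against 19 in ACV and 4.02 against 5 in laryngeal neurons. In ACV, 19 of the 20 neurons with Tbx2 also had Tbx3 (95%), against 79.6% of all ACV neurons. Neurons with neither gene had a lower median depth than those with both in every type. Their median counts outside Rn45s were 767208 in ACP (3 neurons only), 846123 in ACV (19 neurons) and 604141 in laryngeal neurons (27 neurons). Where both were detected the medians were 1226537, 1284094 and 712608, the last over 5 neurons. In the thinned counts 33 ACP, 18 ACV and 5 laryngeal neurons had both, and the part of depth in these classes was not tested.

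The levels of both genes were nearly unrelated among neurons. The Spearman correlation of Tbx2 with Tbx3 was 0.07 in ACP, 0.13 in ACV, 0.06 in laryngeal neurons and 0.12 over all neurons. In the plot of 1 gene against the other, ACP neurons fill the upper right field without a slope, ACV neurons line the axis at 0 reads of Tbx2, and laryngeal neurons lie near either axis.

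**Figure D3:**
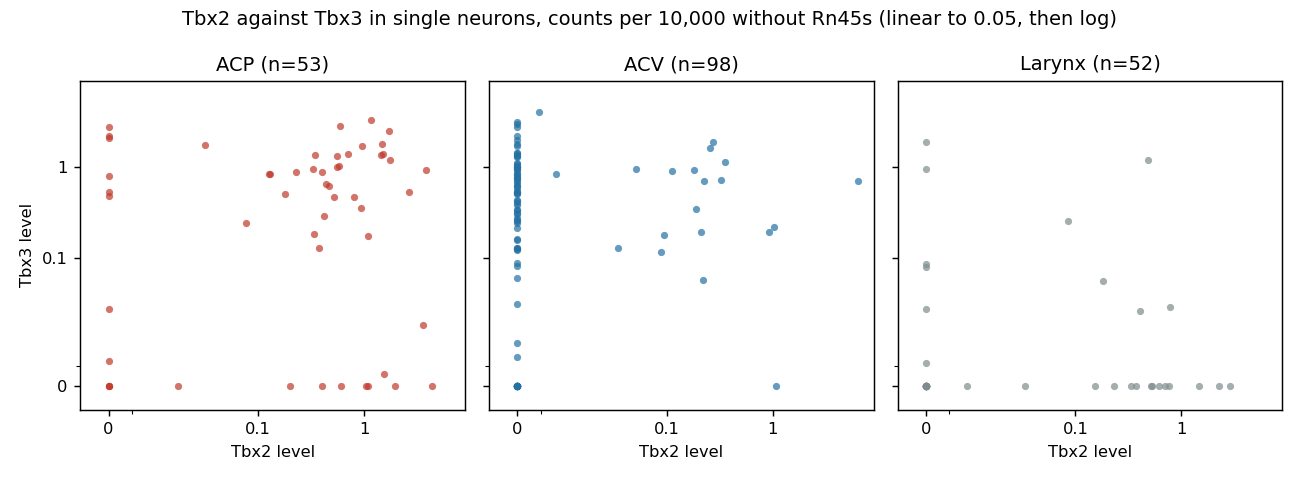
Level of Tbx3 (y axis) against Tbx2 (x axis) in each neuron of the 3 types, in counts per 10000 without Rn45s, on axes that are linear to 0.05 and logarithmic above. Each point is 1 neuron and neurons with 0 reads lie on the axes marked 0. Both genes were detected in 34 ACP, 19 ACV and 5 laryngeal neurons, with a Spearman correlation of at most 0.13 within a type.

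Per kilobase of merged exon, a rough scale for setting different genes side by side, the gene that led differed by type. The mean level per kilobase in ACP was 0.216 for Tbx2 and 0.123 for Tbx3, a ratio of 1.76. Before this scaling Tbx3 had the higher mean in ACP, 0.815 against 0.783, so the lead of Tbx2 there rests on the lengths used. The length of Tbx3 merges 6 annotated transcripts and that of Tbx2 is from 1, and which transcripts these neurons express was not tested. In ACV it was 0.0340 for Tbx2 and 0.0960 for Tbx3, so Tbx3 was 2.83 times as high. In laryngeal neurons it was 0.0681 and 0.0136, with Tbx2 5.0 times as high. Of the 34 ACP neurons with both genes, Tbx2 was the higher per kilobase in 21 and Tbx3 in 13. Among the 19 such ACV neurons Tbx3 was the higher in 13. The median ratio of Tbx2 to Tbx3 per kilobase over these neurons was 1.23 in ACP and 0.609 in ACV.

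Of the 13 other T-box genes in the table, Tbx20 and Mga were widely detected. Tbx20, known to act in hindbrain motor neurons and in the heart, had reads in 29 ACP (54.7%), 71 ACV (72.4%) and 35 laryngeal neurons (67.3%). Its mean level was 0.238 ± 0.434 in ACP, 0.476 ± 0.576 in ACV and 0.478 ± 0.704 in laryngeal neurons. The ACP mean was 0.50 times that of either other type, opposite in direction to Tbx2, but the difference was smaller than the SD of any type. Mga, a large protein that pairs a T-box with a Max-binding domain, was found in 83%, 79.6% and 71.2% of ACP, ACV and laryngeal neurons at means of 0.405, 0.507 and 0.403.

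Tbr1 and Eomes, best known from cortical neurons, were rarer. Tbr1 was detected in 9 ACP, 14 ACV and 14 laryngeal neurons, and Eomes in 3, 7 and 8, with 53.3% of the 332 laryngeal reads of Eomes in 1 neuron. Tbx1, Tbx15, Tbx18, Tbx19, Tbx21 and T had reads in at most 3 neurons of any type, and Tbx6, Tbx10 and Tbx22 had none. Of the 13 genes, 3 passed the filter for ACP against ACV and 0 were past 2-fold in either direction, where 9.87% of all genes were higher in ACP and 8.63% in ACV, with a median log2 ratio of -0.32 against 0.00 over all genes. For ACP against laryngeal neurons, 4 passed and 2 (Tbx20 and Eomes) were at least 2-fold higher in laryngeal neurons, where 12.5% of all genes were. Tbx20 was 1.998-fold higher in ACV and 2.005-fold higher in laryngeal neurons than in ACP, so the 2-fold limit alone parts these values.

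**Figure D4:**
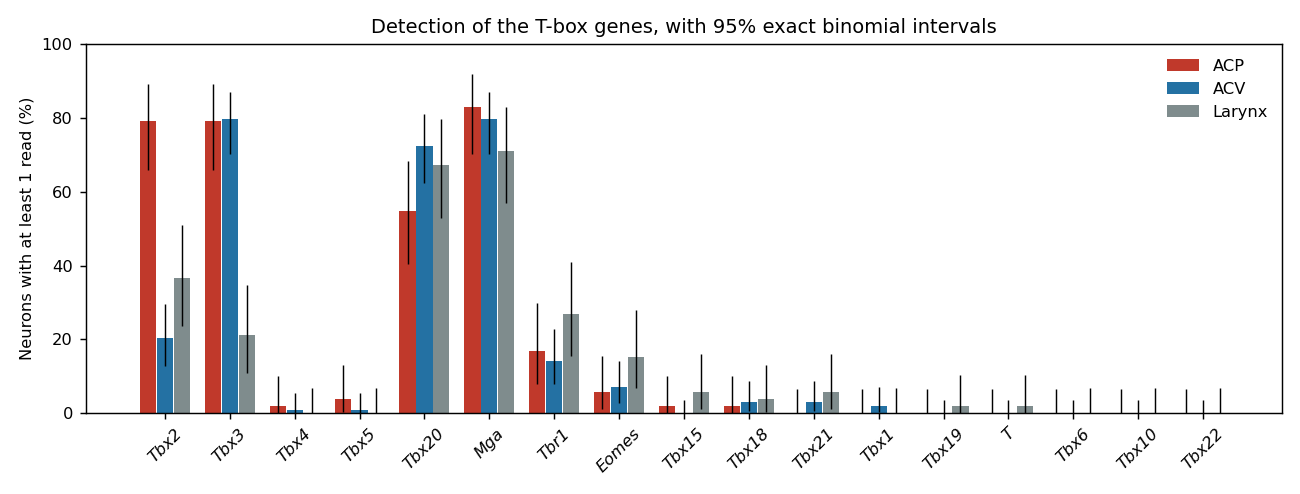
Share of neurons (%) with at least 1 read of each of the 17 T-box genes of the table in ACP, ACV and laryngeal neurons, with 95% exact binomial intervals as error bars. Tbx2 stands out in ACP (79.2%), Tbx3 in ACP and ACV (79.2 and 79.6%), while Mga and Tbx20 were found in over 50% of neurons of every type.

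The genes around Tbx2 and Tbx3 were also read. Bcas3, which lies 6493 bases before Tbx2 on the same strand, was detected in 90.6% of ACP, 79.6% of ACV and 73.1% of laryngeal neurons at means of 1.42, 0.719 and 0.510, in part the same order as Tbx2. The next gene on that side, Ppm1d, had means of 0.0666, 0.1 and 0.0849. The nearest protein-coding gene before Tbx3 is Med13l, 905231 bases away (means 0.323, 0.238 and 0.397). After Tbx3 comes Tbx5 and then Rbm19, 431741 bases from Tbx3 (0.0670, 0.223 and 0.329). Neither Med13l nor Rbm19 followed the cardiac pattern of Tbx3.

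Tbx3 has antisense partners. Tbx3os1 overlaps the exons of Tbx3 and is not among the rows of the table, and since the sources used here do not say whether reads were counted by strand, reads in that overlap cannot be assigned. Tbx3os2 lies after Tbx3 on the minus strand with no exon overlap. It was detected in 21 of 53 ACP (39.6%), 11 of 98 ACV (11.2%) and 9 of 52 laryngeal neurons (17.3%), at means of 0.116 ± 0.181, 0.0265 ± 0.0871 and 0.0763 ± 0.283. Its mean in ACP was 4.38 times that in ACV, where 9.87% of all genes were at least 2-fold higher in ACP. For Tbx3 itself that ratio was 1.28, and its direction reversed among neurons with at most 900 Apoe counts.

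Genes most like Tbx2 and Tbx3 were ranked by Spearman correlation over neurons, among 10590 genes detected in at least 25% of neurons. The points share libraries and depth, and the values are a description. For Tbx2 the highest were Pappa2, a protease that cleaves IGF-binding proteins (0.57), Lmo4, a LIM-only transcription cofactor (0.45), Dpy19l1 (0.43), Tmem163, a zinc transporter (0.42), and D930028M14Rik (0.42). Only 8 genes (0.0755%) reached 0.4.

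These followed the division into types more than neurons within a type. The study itself lists Tbx2, Pappa2, Dpy19l1, Tmem163 and D930028M14Rik as enriched in ACP over ACV. ACP and ACV were defined by clustering these same counts, so the likeness by type is not an independent result. Pappa2 was detected in 94.3% of ACP, 5.10% of ACV and 21.2% of laryngeal neurons, at means of 2.55 ± 2.99, 0.0136 ± 0.0838 and 0.157 ± 0.662, while its correlation with Tbx2 was 0.20 in ACP, 0.40 in ACV and 0.14 in laryngeal neurons. Lmo4 had means of 3.28 ± 2.66, 0.671 ± 1.47 and 2.26 ± 1.67, the same order as Tbx2. The lowest correlations were those of Hoxa5, a homeodomain factor of the caudal hindbrain (-0.38), Cd9, a tetraspanin (-0.36), and Akap7, a protein kinase A anchor (-0.35). All of them had their highest mean in ACV, Hoxa5 with 4.43 ± 4.01 against 0.106 ± 0.320 in ACP and 0.126 ± 0.366 in laryngeal neurons. The study lists Hoxa5, Cd9 and Akap7 as enriched in ACV over ACP, again from these counts.

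For Tbx3 the highest were Rgs4, a regulator that shortens G protein signaling (0.52), Fgf13, an intracellular factor that binds sodium channels (0.50), Celf6, an RNA-binding protein (0.50), Cask, a synaptic scaffold (0.49), and Maoa, monoamine oxidase A (0.49). All had lower means in laryngeal neurons, with Rgs4 at 2.91 ± 2.93 in ACP, 3.30 ± 2.53 in ACV and 0.734 ± 0.888 in laryngeal neurons. The study lists Tbx3, Rgs4, Fgf13, Celf6 and Maoa as enriched in Amb Cardiac neurons, from these same neurons. Their likeness across types is therefore not an independent result. Rgs4 kept a correlation of 0.57 within ACP and 0.35 within ACV, and had -0.10 within laryngeal neurons. The part of depth, with which Tbx3 itself correlated at 0.52, was not tested. The lowest were Nfib, a nuclear factor I protein (-0.43), Calca, which encodes CGRP (-0.42), and Vsnl1, a neuronal calcium sensor (-0.41), all with their highest mean in laryngeal neurons.

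**Figure D5:**
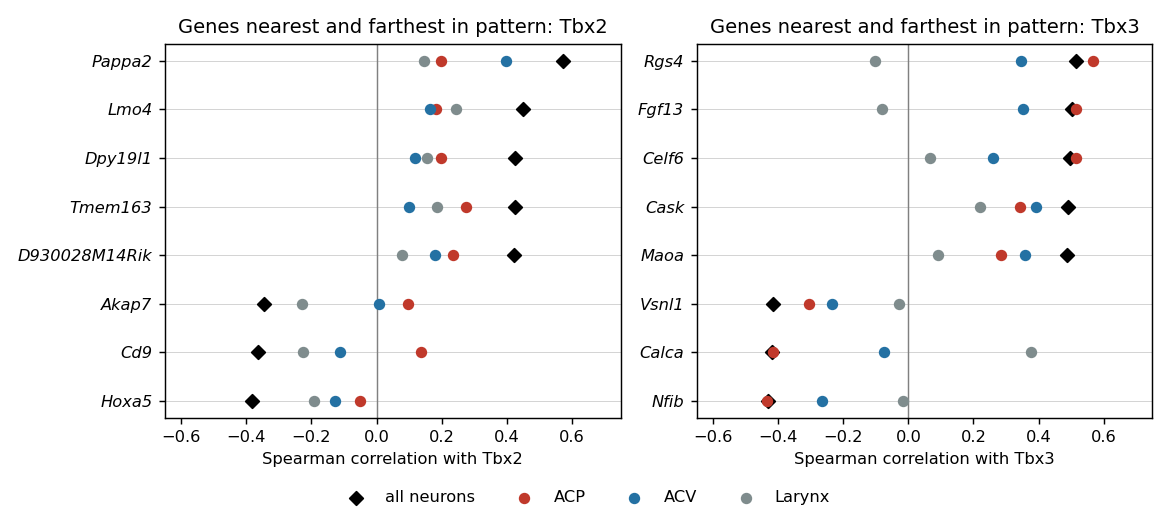
Spearman correlation (x axis) of the 5 genes most like and the 3 least like Tbx2 (left) and Tbx3 (right), over all neurons (diamonds) and within each type (circles). For Tbx2 the value over all neurons lies farther from 0 than those within types for all 8 genes, while Rgs4, Fgf13 and Celf6 had about the same value with Tbx3 within ACP (0.57, 0.52 and 0.51) as over all neurons.

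Within single types other genes led. In ACP the genes nearest to Tbx2 were Pstpip1 (0.58), A4galt (0.53), Ccdc85b (0.53), Zfand5 (0.52) and Deaf1 (0.51), whose values within ACV lay between -0.15 and -0.04. Those nearest to Tbx3 in ACP were Ddah1 (0.69), Mok (0.65), Map2k3 (0.65), Actg1 (0.63) and Spag7 (0.60), which had 0.10 to 0.21 within ACV. In ACV they were Xrcc6 (0.49), Hmbox1 (0.49), Vat1l (0.49), Fgf1 (0.47) and Gm14326 (0.47). Vat1l, found in 96.2% of ACP and 100% of ACV neurons, was also near Tbx3 within ACP (0.57). In ACP, 2.19% of 10660 genes reached 0.4 with Tbx3 and 0.507% with Tbx2, over only 53 neurons.

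The genes that mark the types were set beside both members within each type. Tbx2 was nearly unrelated to the ACP markers Calb1, Trhr, Tacr3 and Mc4r among ACP neurons (-0.12 to 0.04). Among ACP neurons Tbx3 had 0.35 with Calb1, a calcium-binding protein, -0.36 with Tacr3, the neurokinin B receptor, 0.18 with Trhr and 0.10 with Mc4r. Among ACV neurons it had 0.34 with Htr3b, a serotonin receptor subunit, and 0.10 to 0.18 with Bche, Ghsr and Lepr. With the laryngeal marker Calca, Tbx3 had -0.42 within ACP and 0.38 within laryngeal neurons, and with Lhx4, a LIM-homeodomain factor, -0.38 and 0.35. Calcb had -0.24 and 0.43, and Dlk1 had -0.09 and 0.34. The laryngeal values rest on 11 neurons with Tbx3.

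Among genes that Tbx2 or Tbx3 are known to repress in other tissues, 5 passed the filter for ACP against laryngeal neurons. Of these 0 were at least 2-fold higher in ACP, where 10.3% of all genes were, and 2, Nppa, which encodes atrial natriuretic peptide, and Ndrg1, were at least 2-fold higher in laryngeal neurons, where 12.5% of all genes were. With so few genes nothing particular to the list can be read from these counts. The mean level of Nppa was 0.0118 in ACP, 0.0311 in ACV and 0.0570 in laryngeal neurons, and that of Ndrg1 was 0.197, 0.285 and 0.742. Cdkn1a, the cell cycle inhibitor p21, was found in over 90% of neurons of each type at means of 2.28 ± 1.90, 2.61 ± 2.48 and 2.10 ± 2.61, and Cdkn2a had no read in any neuron.

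Among the corepressors and partners, Hdac3, Hdac2 and Ncor1, parts of histone deacetylase complexes, were detected in over 90% of neurons of every type. The mean level of Sin3a was 0.241 in ACP, 0.102 in ACV and 0.226 in laryngeal neurons, and that of Rb1 was 0.272, 0.124 and 0.201. The mean of Hdac1 was 0.312 in ACP, 0.286 in ACV and 0.142 in laryngeal neurons. The cardiac partners Nkx2-5, Gata4 and Hand2 had no read in any neuron.

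The BMP pathway, which acts upstream of both genes in several tissues, had 20 of 24 listed genes past the filter for ACP against ACV. Of these, 4 were at least 2-fold higher in ACP, where 9.87% of all genes were, the ligand Bmp4 (0.0897 against 0.0134), the receptor Bmpr1b, the signal transducer Smad9 (0.225 against 0.108) and the inhibitor Nog. The 2 at least 2-fold higher in ACV, where 8.63% of all genes were, were the inhibitors Chrd and Grem1. The median log2 ratio of the 20 was 0.21, against 0.00 over all genes. For ACP against laryngeal neurons, 5 of 19 were higher in ACP, where 10.3% of all genes were, among them the target genes Id1 (0.398 ± 0.454 against 0.101 ± 0.255) and Id3 (0.713 ± 1.0 against 0.245 ± 0.440), and 1, Chrd, was higher in laryngeal neurons (0.0959 against 0.0102), where 12.5% of all genes were. For ACV against laryngeal neurons, 18 passed. Of these 4 (Acvr2a, Id1, Id3 and Grem1) were at least 2-fold higher in ACV, where 10.4% of all genes were, and 4 (Acvr1, Smad1, Nog and Chrd) in laryngeal neurons, where 14% were, with a median log2 ratio of 0.01. In ACV the means of Id1 and Id3 were 0.264 ± 0.659 and 0.640 ± 1.32, and they were detected in 66 and 67.9% of ACP, 50 and 46.9% of ACV, and 23.1 and 42.3% of laryngeal neurons. Each of the differences whose means are given here was smaller than the SD of the type with the higher mean. The aspirated neurons also held glial RNA, and its part in these differences was not tested.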

How the data were processed

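Single Amb neurons were sequenced by Smart-seq2 with paired-end reads of 75 bases. The authors trimmed reads with Skewer, aligned them to mm10 with STAR 2.6.1d (per the submitters' processing notes) and deposited raw read counts per gene, without normalization. They removed neurons of low depth or high Apoe. The counter, annotation and strand setting are not given in the sources used here. The deposited CPM table was not used because its columns do not sum to 1 common total. Target and type of each neuron came from the deposited annotation.

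Counts were scaled to 10000 of each neuron's total without Rn45s. Genes detected in at least 10% of either type entered comparisons, and genes in at least 25% of the neurons used entered correlations. Each type is 1 sample, since the mouse is not in the labels, so means, SDs over neurons, exact binomial intervals (95%) and ratios were given without tests. The binomial intervals treat neurons as independent draws and do not cover mice or plates that neurons may share. The reads carry no molecular identifiers. The upper limit for a count of 0 was set at 3 neurons. The ratio code was checked on simulated data. Python 3.11.15, numpy 2.4.6, pandas 2.3.3, scipy 1.17.1, matplotlib 3.10.9, R 4.3.3, edgeR 4.0.16 and DESeq2 1.42.0 (the last 2 for library sizes only) were used. Positions and sequences came from GENCODE on GRCm38.

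Named genes were the 4 members, the other T-box genes, the 5 genes with the highest and 3 with the lowest correlation with Tbx2 or Tbx3 over all neurons, the 5 highest within ACP and ACV where the member was detected in at least 25% of the type, the 2 nearest protein-coding genes on each side with antisense genes, and genes of the lists where a count names them. The members and lists were chosen with earlier results of these data known. Alternatives covered scaling, depth, Apoe counts, detection limits and filters. Some listed genes, and the counts of their lists that need them, are not reported here.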

Additional observations from a re-analysis of the deposited data

How the results depend on the processing

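No paired analysis was possible because the labels number no replicates across types and no test was made. Shares of neurons with Tbx2, Tbx3 or both were recomputed after thinning and at 5 reads or more. They were also recomputed with at most 900 Apoe counts or at least 1000000 counts. Every share stayed within the exact interval of the value reported, but these intervals are wide and come from the same neurons. With at most 900 Apoe counts, the ACP shares of Tbx2 and of Tbx3 each fell from 79.2 to 69.2%. The ACP share with both fell almost to the lower limit of its interval, while that of Tbx2 in ACV rose from 20.4 to 22.7%. At 5 reads or more, laryngeal Tbx3 fell from 21.2 to 11.5%. Of the 48 recomputed log2 ratios of Tbx2 and Tbx3, 42 moved by less than 1.5-fold. With the highest neuron of each type left out, the log2 ratio of Tbx2 became 3.61 for ACP over ACV (2.67 reported) and -1.73 for ACV over laryngeal (-1.0), and that of Tbx3 became 3.81 for ACP over laryngeal (3.18) and 3.46 for ACV over laryngeal (2.82). With at most 900 Apoe counts (26 ACP, 44 ACV and 38 laryngeal neurons), Tbx2 was at -1.78 for ACV over laryngeal and Tbx3 turned to -0.36 for ACP over ACV (0.36). The Pearson correlation of log2 levels of Tbx2 and Tbx3 was 0.00 in ACV (Spearman 0.13) and -0.04 in laryngeal neurons (0.06). The causes were not tested.

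Counts of genes past 2-fold followed the filter. For ACP and ACV (1318 higher in ACP and 1153 in ACV), they were 3180 and 3783 with no filter on detection, 789 and 537 for genes in 25% of either type, and 287 and 170 with a pseudocount of 0.1. For ACP and laryngeal (1369 and 1654) they were 3429 and 4095, 817 and 1017, and 286 and 384, and with totals that included Rn45s 3399 and 695. For ACV and laryngeal (1382 and 1859) they were 3897 and 4097, 764 higher in ACV at 25%, 243 and 556, and 3281 and 955 with Rn45s. For all cardiac and laryngeal neurons (1249 and 1440) they were 4504 and 3482, 700 and 954, 215 and 386, and 3212 and 608 with Rn45s. Totals with Rn45s moved the median gene by 0.61 for ACP and 0.54 for ACV over laryngeal on the log2 scale. For Tbx4 and Tbx5, with at most 4 reads in any neuron, no ratio could be formed, and absence and a level under the limit of detection cannot be told apart. The number of mice behind each type is not in the labels.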
